A study of Mus musculus with 6 samples.

Results

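The 10 genes described here encode glucose uptake, glycolysis, lactate production and the oxygen sensor's transcription factor: Slc2a1, Hk2, Pfkp, Aldoa, Gapdh, Pgk1, Eno1, Pkm, Ldha and Hif1a. They were taken by name from a list drawn up with earlier results of these data known, and all 10 were found among the 41388 genes of the RNA-seq files. The cells were joint chondrocytes taken from the femoral heads of male B6/129 mice, 21 days old, and RNA was extracted after 2 days in culture with no treatment. One group carried a knockout of periostin (Postn-/-, 3 mice), a matricellular protein, and the other was wild-type (wt, 3 mice). The study's methods name the allele Postn tm1Jmol/J, on a B6129SF2/J background that the wt mice share. The allele is present in the whole animal, and its targeting vector put a neomycin cassette in place of several exons. The high-glucose culture medium was shared by both groups. The study asked how the transcriptomes differed at baseline, and it used Gapdh as the reference gene of its real-time PCR.

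Glycolysis breaks glucose down to pyruvate and yields ATP without oxygen. Cartilage has no blood vessels, and its chondrocytes live at low oxygen and rely largely on glycolysis. HIF-1, of which Hif1a encodes the oxygen-regulated subunit, is known to bind the core letters ACGTG or GCGTG in DNA and to raise the transcription of glucose transporters and glycolytic enzymes. Hif1a is controlled mainly at the level of its protein, which RNA-seq does not measure.

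Each library held 20587640 to 26572260 counted reads. A count of 3 reads was worth 0.113 to 0.146 CPM (counts scaled to a common library size). Postn itself was at 4.66, 4.27 and 5.67 CPM in Postn-/- libraries and at 10.1, 10.3 and 6.90 CPM in wt libraries, so reads remained in the knockout but the groups did not overlap (log2 fold change -0.91, edgeR unadjusted p = 0.00362, adjusted p = 0.717). Chondrocyte markers were abundant in every library, with a summed level of 36540.2 to 49183 CPM in Postn-/- and 30784 to 44181 CPM in wt, and none of the 14 was at 0. Fibroblast markers (8 genes) summed to 2552 to 5223 CPM against 3411 to 6105 CPM, and osteoblast and osteoclast markers (8 genes) to 830.0 to 1014 CPM against 709 to 1414 CPM. Skeletal muscle markers (10 genes) summed to 22.9 to 25.7 CPM in Postn-/- and 24.2 to 38.0 CPM in wt. Blood and bone marrow markers (12 genes, 1 of them at 0 in all libraries) summed to 29.8 to 50.2 CPM and 20.1 to 34.0 CPM, and endothelial markers (6 genes) to 10.1 to 13.7 CPM and 7.27 to 11.9 CPM. In bulk samples such as these, fewer cells of a type and less RNA per cell cannot be told apart.

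The sequences before the start sites of 4 of the genes are shown because the HIF motif lies there in different numbers, and because the levels of Ldha and Pgk1 were the most correlated of all pairs of the 10. Both forms of the motif, ACGTG and GCGTG, were searched on both strands from 250 bases before to 50 bases after each RefSeq start site (GRCm38.p6), and all 10 genes had at least 1 window. The 250 bases before the start are printed 5′ to 3′ on the strand of the gene, with each match to either form or its reverse complement in capitals.
Ldha, chr7:46845554-46845803, plus strand: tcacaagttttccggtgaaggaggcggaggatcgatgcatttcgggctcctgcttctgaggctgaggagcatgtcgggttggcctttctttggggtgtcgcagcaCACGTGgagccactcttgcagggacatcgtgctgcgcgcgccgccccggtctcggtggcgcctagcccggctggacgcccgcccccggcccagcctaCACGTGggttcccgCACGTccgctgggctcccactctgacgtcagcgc
Pgk1, chrX:106186850-106187099, plus strand: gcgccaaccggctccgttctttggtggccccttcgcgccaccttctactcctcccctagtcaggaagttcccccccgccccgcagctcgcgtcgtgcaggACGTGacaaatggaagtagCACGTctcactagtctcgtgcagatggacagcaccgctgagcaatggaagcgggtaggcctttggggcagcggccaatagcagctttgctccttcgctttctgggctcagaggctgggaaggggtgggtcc
Slc2a1, chr4:119108495-119108744, plus strand: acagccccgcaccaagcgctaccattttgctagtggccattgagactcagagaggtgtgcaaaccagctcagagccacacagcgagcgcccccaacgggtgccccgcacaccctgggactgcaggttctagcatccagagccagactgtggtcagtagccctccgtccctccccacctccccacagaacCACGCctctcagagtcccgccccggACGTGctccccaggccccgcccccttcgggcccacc
Gapdh, chr6:125165774-125166023, minus strand: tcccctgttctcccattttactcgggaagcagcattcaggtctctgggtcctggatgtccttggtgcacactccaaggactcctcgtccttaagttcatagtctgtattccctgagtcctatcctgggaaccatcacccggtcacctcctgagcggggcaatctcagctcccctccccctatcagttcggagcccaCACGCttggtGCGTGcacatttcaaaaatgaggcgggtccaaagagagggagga

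Ldha held 5 matches to ACGTG in its first window, at positions -145, -144, -48, -47 and -34 (the first base of each match, with the start site at 0). Of these, 2 pairs are the palindrome CACGTG, which matches on both strands and so counts at 2 neighbouring positions. The same window of Ldha held GCGTG at 25 and 37, past the printed bases. Pgk1 held ACGTG at -150 and -131, and Slc2a1 held it at -36 with GCGTG at -61. Hk2 held ACGTG at -226 and -52, and Hif1a at -135, -134 and -70. Gapdh held GCGTG at -54 and -44 and ACGTG at 42, past the printed bases. Among the 10 genes, 8 held ACGTG and 10 held either form in at least 1 window. Over all 27025 genes with a window, 21.8% held ACGTG and 46.7% held either form. The 10 genes had 16 windows in all, of which 9 held ACGTG and 14 held either form, against 19.6% and 43.8% of the 32851 windows of all genes. A match is a string of letters and was not tested as a binding site.

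No difference between genotypes in the 10 genes passed the test. The edgeR quasi-likelihood test with Benjamini-Hochberg adjustment over 14533 genes gave adjusted p-values of 0.750 to 0.967 for the 10, and 0 of 10 passed 0.05, as in DESeq2. It called 2 of the 14533 genes, 0.0138%, of which 1 was higher and 1 lower in the knockouts (0.00688% each). With no adjustment, a threshold of 0.05 also called 0 of 10, where 6.30% of all genes passed. In none of the 10 did the 3 Postn-/- libraries lie wholly above or below the 3 wt libraries, an arrangement found in 13.6% of all genes (7.03% above and 6.57% below). The log2 fold changes of Ldha, Pfkp, Eno1 and Pgk1 were 0.07, 0.10, 0.13 and 0.15. The log2 fold change of Postn-/- over wt was above 0 for 8 of the 10, with a median of 0.11, whereas 50.8% of all genes were above 0 with a median of 0.0042. In the plot of levels by library, the groups overlap for every gene.

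**Figure D1:**
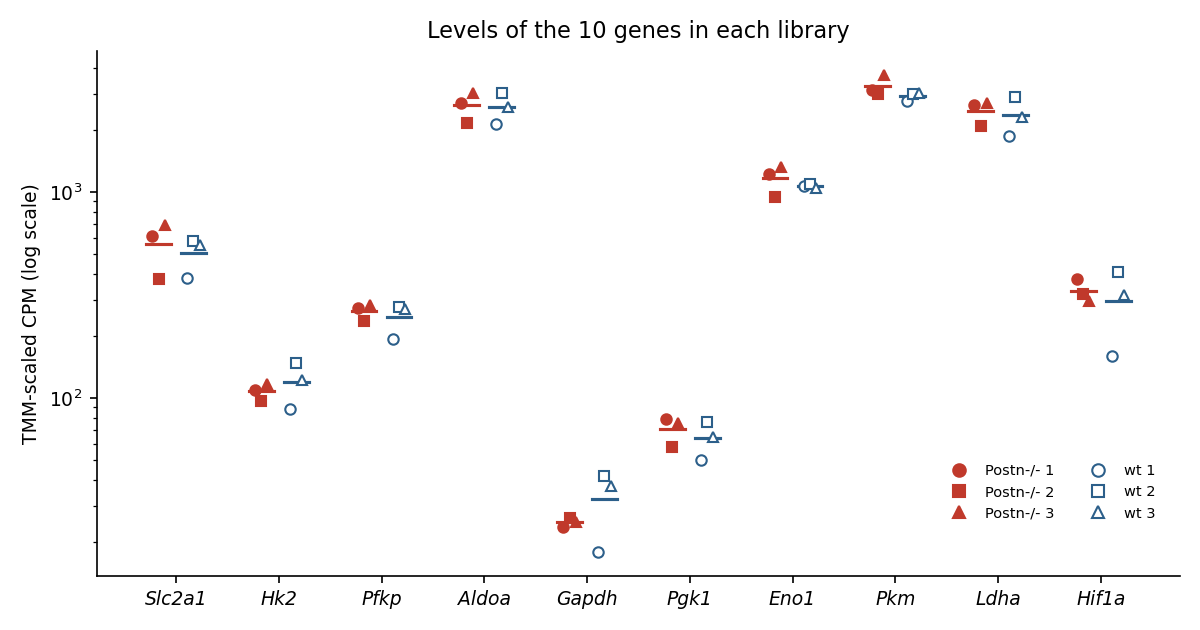
Level of each of the 10 genes in each library, in CPM scaled by TMM (trimmed mean of M-values) on a log axis; filled red symbols are Postn-/- and open blue symbols wt, the symbol shape gives the replicate number and the bars are group means. Gapdh lies at 17.9 to 41.8 CPM, and wt replicate 1 lies lowest in 8 of the 10 genes.

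Slc2a1 (4:119108711-119137330, plus strand, GRCm38) encodes GLUT1, which carries glucose into the cell. Its TMM-scaled level was 609.8, 378 and 689 CPM in Postn-/- libraries and 383, 577 and 555 CPM in wt libraries. The lowest and the highest library were both Postn-/-. The log2 fold change was 0.15 ± 0.25 (SE, n = 3 per group; edgeR adjusted p = 0.888).

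Hk2 (6:82725025-82774454, minus strand) encodes hexokinase 2, which traps glucose in the cell as glucose-6-phosphate. It was at 109, 96.5 and 117 CPM in the knockouts against 88.2, 148 and 122 CPM in wt. The wt libraries lay on both sides of the Postn-/- libraries, and the log2 fold change was -0.15 ± 0.19 (SE; edgeR adjusted p = 0.842). Hk2 shared no exact 50-base word with an annotated transcript of another gene.

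Pfkp (13:6579768-6648777, minus strand) encodes the platelet type of phosphofructokinase, the committing step of glycolysis. It was at 274, 235 and 284 CPM in the knockouts against 194, 276 and 269.9 CPM in wt. Only wt replicate 1 fell below all Postn-/- libraries. Aldoa (7:126795234-126800751, minus strand), aldolase A, splits the 6-carbon sugar and was at 2715, 2167 and 3026 CPM in the knockouts against 2136, 3010.2 and 2571 CPM in wt. Its log2 fold change of 0.04 (95% interval -0.40 to 0.47) was the nearest to 0 of the 10.

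Pgk1 (X:106187100-106203699, plus strand) encodes phosphoglycerate kinase, the first ATP-yielding step. It was at 78.6, 57.5 and 75.6 CPM in the knockouts against 49.7, 76.4 and 64.9 CPM in wt, with wt replicate 1 the lowest. Eno1 (4:150236721-150248879, plus strand), enolase 1, was at 1217, 949 and 1322 CPM in the knockouts against 1064, 1091 and 1041 CPM in wt. The 3 wt libraries of Eno1 stood close together, with a coefficient of variation of 2.35%, and lay inside the range of the Postn-/- libraries. Pkm (9:59656368-59679375, plus strand) encodes pyruvate kinase M, which makes pyruvate. It was at 3136, 2975 and 3712 CPM in the knockouts against 2761, 2974 and 3037 CPM in wt. Its log2 fold change was 0.16 (95% interval -0.18 to 0.50).

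Ldha (7:46841475-46855627, plus strand) encodes the A subunit of lactate dehydrogenase, which turns pyruvate to lactate and restores NAD. It was at 2629.8, 2079 and 2691 CPM in the knockouts against 1875, 2882 and 2316 CPM in wt, and both the lowest and the highest library were wt. Hif1a (12:73901375-73947530, plus strand) gave 379.9, 318 and 296 CPM in the knockouts against 159, 410.5 and 315 CPM in wt. The wt libraries of Hif1a differed 2.59-fold from lowest to highest, the widest range of the 10. Its log2 fold change was 0.17 ± 0.30 (SE; edgeR adjusted p = 0.897), with a 95% interval of -0.53 to 0.87.

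Gapdh (6:125161853-125166467, minus strand) encodes glyceraldehyde-3-phosphate dehydrogenase, which reduces NAD in the middle of the pathway. It was at 23.7, 26 and 25 CPM in the knockouts against 17.9, 41.8 and 37.5 CPM in wt. The Postn-/- libraries were close together and the wt libraries lay on both sides of them. The coefficient of variation was 4.67% in Postn-/- and 39.3% in wt. Its log2 fold change of -0.38 ± 0.28 (SE; 95% interval -1.03 to 0.27; edgeR adjusted p = 0.750) was the lowest of the 10.

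Over all 6 libraries the coefficient of variation of Gapdh was 31.6%, at the 82.8th percentile of all genes tested. Hif1a followed with 27.9%, Slc2a1 with 23.7% and Hk2 with 18.6%. Pgk1 was at 17.5%, Ldha at 16.1%, Aldoa at 15.0%, Pfkp at 13.6%, Eno1 at 12.0% and Pkm at 10.5%. The median over all genes tested was 16.9%. Gapdh and Hif1a were the 2 genes of the 10 whose highest library exceeded the lowest more than 2-fold.

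The library labelled wt replicate 1 was the lowest of the 6 in 8 of the 10 genes, the exceptions being Eno1 and Slc2a1, which were lowest in Postn-/- replicate 2. The same library was lowest in 26.1% of all genes and highest in 24.6%, and it was highest in 0 of the 10. It also had the lowest summed chondrocyte markers, 30784 CPM; the part of this in the result was not tested. Leaving out a wt library that is the lowest of the 6 for a gene raises the wt mean of that gene. A lower fold change without wt replicate 1 therefore follows from that choice, and neither it nor its p-value is a test of the gene. Without wt replicate 1, the log2 fold change was below 0 for 8 of the 10 genes, 6 of which had been above 0, with a median of -0.06. Gapdh then had a log2 fold change of -0.67 (edgeR unadjusted p = 0.000608, adjusted p = 0.676) and Hk2 of -0.33 (unadjusted p = 0.0454, adjusted p = 0.833). These 2 genes were also the ones whose remaining libraries no longer overlapped, as in 22.3% of all genes, and 5.44% of all genes passed the unadjusted threshold.

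**Figure D2:**
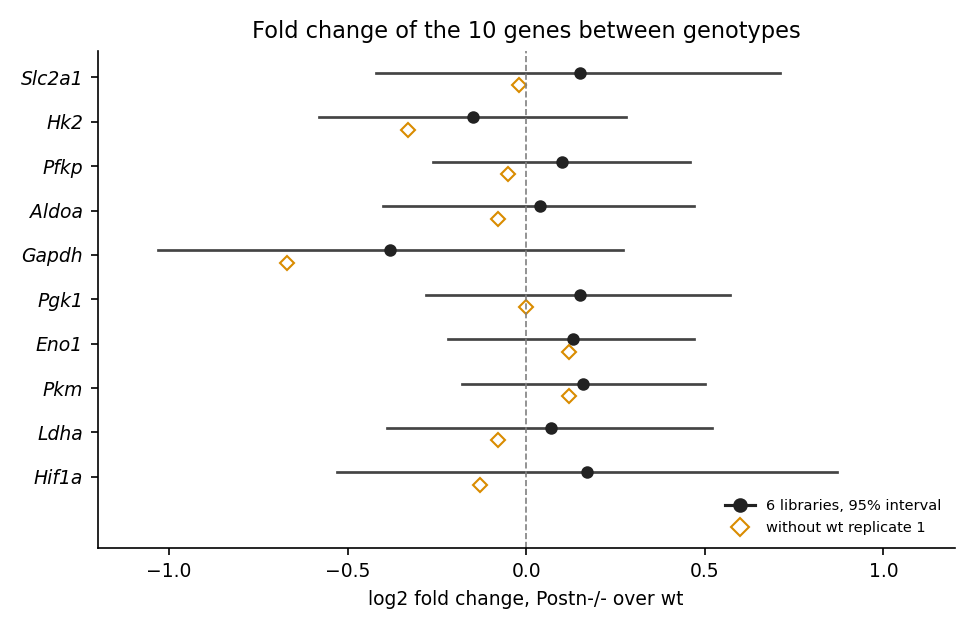
Log2 fold change of Postn-/- over wt for each of the 10 genes; black points and lines are the edgeR estimate and its 95% interval from 6 libraries, and open diamonds are the estimate without wt replicate 1. All 10 intervals hold 0, and Gapdh moves from -0.38 to -0.67 when that library is left out.

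Levels of different genes were compared per kilobase of exon, as TMM-scaled RPKM over the exon length in the files. The mean was 1192 RPKM for Pkm, 946 for Aldoa, 809 for Ldha, 207 for Eno1 and 187 for Slc2a1. Hif1a followed at 53.1 RPKM, Pgk1 at 29.9, Pfkp at 27.2, Hk2 at 19.0 and Gapdh at 11.2. The ranges over libraries of neighbours in this order overlapped except between Ldha and Eno1 and between Slc2a1 and Hif1a. Within libraries, each gene exceeded the next in 6 of 6, except Eno1, which exceeded Slc2a1 in 5 of 6. Gapdh, a textbook abundant transcript, was thus the lowest of the 10 by this measure. The RPKM of Pkm was 70.2 to 152 times that of Gapdh (median 122). The exon length counts all exons of a gene, 2565 bases for Gapdh and 9395 for Pfkp. Their longest principal transcripts have 1420 and 4145 bases, against 2599 exon bases and 2432 principal bases for Pkm. The order and the ratio depend on the length used, and they were not computed on the principal transcripts.

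Whether the counting step shaped that order was not tested. The authors counted only reads of 50 bases that aligned to 1 place, so a read from a stretch that also occurs elsewhere cannot be counted. Of the 50-base words in the principal transcripts of Gapdh, 78.3% also occurred in transcripts of other genes (GENCODE M21). The share was 72.2% for Eno1, 68% for Pgk1, 34.4% for Pkm, 17.1% for Pfkp, 16.4% for Ldha, 12.5% for Aldoa, 7.25% for Hif1a, 1.74% for Slc2a1 and 0% for Hk2. Gapdh shared words with 223 genes, 213 of them pseudogenes, and 27 of those in the files held at least 50% of their own words in common with it. For Pfkp the shared words were those of Pitrm1, which overlaps it on the opposite strand, and no strand-specific counting is stated.

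The genes that shared the most words with one of the 10 were Eno1b (1395 words, with Eno1), Pgk1-rs7 (1206) and Gm5537 (1203, both with Pgk1), Gm7336 (1131, with Gapdh) and Gm4735 (1044, with Eno1). Eno1b had 998, 1299 and 293 reads in Postn-/- and 700, 1728 and 1572 reads in wt, with overlapping groups. The other 4 had at most 14 reads in any library. Levels of Gapdh, Eno1 and Pgk1 are therefore uncertain, since reads can be lost or split between these genes.

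For Gapdh, a copy could hold more reads than the gene itself. The processed pseudogene Gm13394 (2:28933610-28934609, minus strand) was singled out after its values were seen. It had 4119, 623 and 2729 reads in Postn-/- libraries and 3017, 1415 and 6 reads in wt libraries, while Gapdh had 590, 640 and 525 reads and 466, 924 and 782 reads. Gm13394 thus outnumbered Gapdh in 4 of 6 libraries and was nearly without reads in wt replicate 3. Its CPM differed 403-fold among the wt libraries and 6.53-fold among the Postn-/- libraries. With 0.1 CPM added to each value the wt fold was 299.6, and of the 8409 tested genes with a mean of at least 10 CPM, 0 had a larger one on that scale.

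The 1000 bases of Gm13394 match positions 93 to 1092 of the 1273-base Gapdh transcript with 1 difference, A438C, where the position is counted from the 5′ end of the Gapdh transcript. The base lies in coding exon 4 of Gapdh, at 6:125163016, and at 2:28934264 in Gm13394. The 50 bases around it are shown on the strand of each gene, with the base that differs in capitals, because these are the bases by which a read can be given to Gm13394.
Gapdh, chr6:125162991-125163040: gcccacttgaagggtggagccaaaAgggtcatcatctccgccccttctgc
Gm13394, chr2:28934239-28934288: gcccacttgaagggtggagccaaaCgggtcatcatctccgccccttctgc

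Of the 951 words of 50 bases in Gm13394, 50 occurred in no other gene, and they are the words that cover this base. Of the 1224 words in that Gapdh transcript, 117 (9.56%) occurred in no other gene, all of them outside the stretch that Gm13394 matches. Whether the reads counted for Gm13394 were transcribed from it or from Gapdh was not tested.

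**Figure D3:**
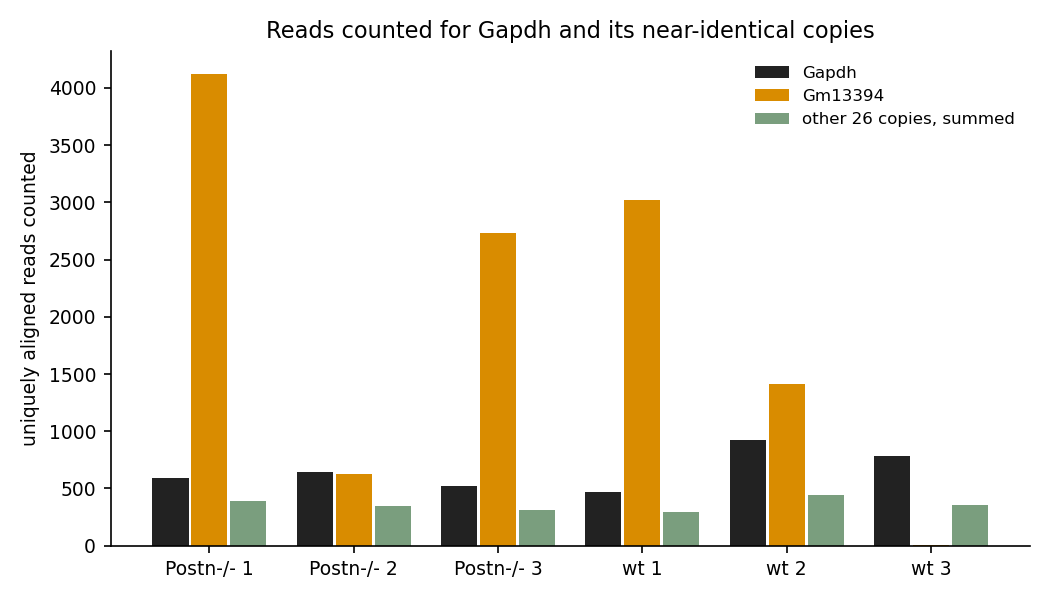
Uniquely aligned reads counted in each library for Gapdh (black), the pseudogene Gm13394 (orange) and the other 26 copies summed (green). Gm13394 ranges from 6 reads in wt replicate 3 to 4119 in Postn-/- replicate 1, while Gapdh stays between 466 and 924 reads.

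Summed with its 27 copies, Gapdh was at 205, 65.3 and 169.9 CPM in the knockouts against 145, 126 and 54.8 CPM in wt, and the groups overlapped. The copies held 88.4%, 60.1% and 85.3% of these reads in Postn-/- libraries and 87.7%, 66.8% and 31.6% in wt libraries. The log2 fold change of the sum was 0.43 (edgeR adjusted p = 0.820), of the opposite sign to that of Gapdh alone.

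Because Gapdh was the reference gene of the real-time PCR, the 4 genes measured there were set against it in the RNA-seq libraries. The study chose them by their pattern in these same libraries, so their values are a description, with no test. The real-time PCR was run on a separate cohort of mice, with a primer pair for Gapdh. The Gapdh value here is the uniquely aligned reads alone, which is another measure. How Gapdh acted as the reference in the real-time PCR cannot be read from these ratios. Relative to the TMM-scaled library, Ndufs5, a subunit of respiratory complex I, was lower in Postn-/- by a log2 difference of -0.41, with groups that did not overlap, as in 13.6% of all genes. Relative to Gapdh the difference was -0.12, and the groups overlapped. Srsf10, a splicing factor, gave a log2 difference of -0.41 on the library scale and -0.12 relative to Gapdh. Dscaml1, a cell adhesion molecule, was higher by 2.74 on the library scale and by 3.03 relative to Gapdh. Tm4sf1, a tetraspanin-like membrane protein, differed by -6.81 and -6.52. For both of the latter the groups did not overlap on either scale. With the copies of Gapdh added to the denominator, the differences were -0.80 for Ndufs5, -0.81 for Srsf10, 2.35 for Dscaml1 and -7.21 for Tm4sf1.

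**Figure D4:**
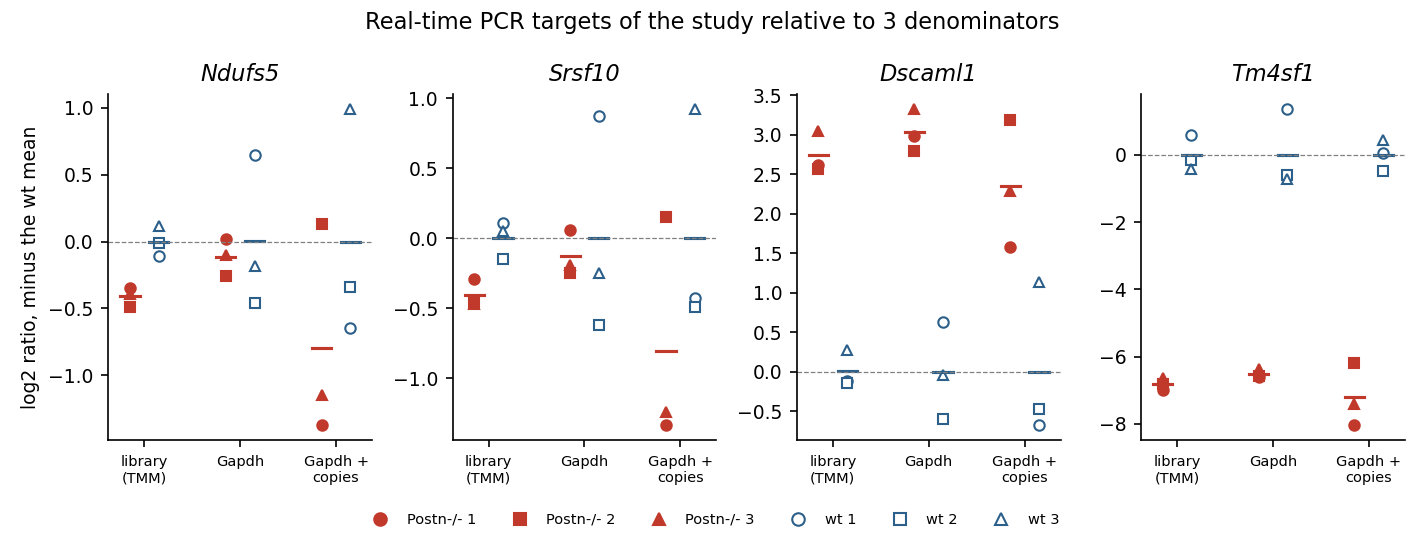
Log2 ratio of each real-time PCR target to the TMM-scaled library, to Gapdh and to Gapdh with its copies, with the wt mean set to 0; filled red symbols are Postn-/-, open blue symbols wt, and bars are group means. Ndufs5 and Srsf10 separate by -0.41 on the library scale and overlap on both Gapdh scales, whereas Dscaml1 and Tm4sf1 separate on all 3.

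The ratio to Gapdh was computed for the 9 other genes of the 10 as well. Its log2 difference between genotypes was above 0 in all 9, from 0.17 for Hk2 to 0.56 for Hif1a. On the library scale 8 of the 9 were above 0. The ratios of a library share the same Gapdh value, which moves all genes alike, so this sign count is no test of the 9 genes. For Hif1a the log2 ratio was 4.0, 3.61 and 3.56 in Postn-/- and 3.15, 3.30 and 3.07 in wt, the only one of the 9 whose groups did not overlap (exact permutation test, two-sided, p = 0.1, the smallest that 3 against 3 libraries allow). Over all genes tested, 7.28% lay wholly higher and 0.0963% wholly lower in the knockouts on this ratio. On the library scale Hif1a differed by 0.27 with overlapping groups. With the copies of Gapdh in the denominator, which also moves all genes alike, the difference was below 0 in all 9, from -0.52 for Hk2 to -0.13 for Hif1a. The groups overlapped in each. Over all genes tested, 0.0344% lay wholly higher and 0.234% wholly lower on that ratio.

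Across the 6 libraries, 38 of the 45 pairs of the 10 genes had a Pearson r above 0.5 on log2(CPM + 0.1), with a median of 0.727. That is 84.4% of the pairs, where 18.1% of all pairs of tested genes had such an r. Without wt replicate 1 it was 28 of the 45 pairs (62.2%, median 0.554), against 20.7% of all pairs. The highest was between Ldha and Pgk1 (0.973) and the lowest between Gapdh and Eno1 (-0.166). The genes whose pattern was most like that of Gapdh were Mrps10 (r = 0.986), a mitochondrial ribosomal protein, Piwil1 (0.984), a Piwi protein, and Cyb561a3 (0.982), a cytochrome b561 protein. Of all genes tested, 141 (0.97%) had an r above 0.9 with Gapdh. Of the 10, Hk2 was the nearest to Gapdh (0.887), then Hif1a (0.727), and Pkm was near 0 (0.060). These values describe 6 libraries, and wt replicate 1 is among them.

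In the rest of the pathway no gene passed an adjusted p of 0.05 in edgeR, where the lowest adjusted p over the lists was 0.717. Of 19 other glycolytic enzymes 13 were tested, with a median log2 fold change of 0.10. At an unadjusted p of 0.05, 0 were higher and 0 lower, beside 3.95% and 2.35% of all genes. The knockout libraries lay wholly above wt in 0 genes and wholly below in 1, beside 7.03% and 6.57% of all genes. Without wt replicate 1 the list's median was 0.01, and 2 genes passed the unadjusted threshold, Eno1b (-1.10) and Eno2 (1.45), beside 5.44% of all genes in that fit (adjusted p = 0.833 for both in edgeR). Tpi1, triosephosphate isomerase, had the highest mean RPKM of that list. It was at 577, 433 and 605 CPM in Postn-/- and 388, 624 and 524 CPM in wt. Of 20 genes of glucose and lactate transport and glycolytic control, 19 were tested, and 1 was higher and 1 lower at the unadjusted threshold, beside 3.95% and 2.35% of all genes. All knockout libraries lay above all wt libraries in 3 genes and below them in 1, beside 7.03% and 6.57% of all genes. The list's median of 0.23 was 0.10 without wt replicate 1. Pdk4, a kinase that shuts off pyruvate dehydrogenase, was at 3.34, 4.64 and 3.67 CPM in the knockouts against 2.00, 1.95 and 2.64 CPM in wt (log2 fold change 0.82, edgeR unadjusted p = 0.00925). Mpc1, a subunit of the mitochondrial pyruvate carrier, was at 14.5, 12.5 and 14.8 CPM against 24.2, 18.3 and 16.1 CPM (-0.49, unadjusted p = 0.0263). Bsg, the chaperone of lactate transporters and the most abundant of the list, gave 0.28 and an adjusted p of 0.740.

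Of 16 genes of the HIF machinery, all tested, the median log2 fold change was -0.07. At the unadjusted threshold 1 was higher and 0 lower, beside 3.95% and 2.35% of all genes. The knockout libraries lay wholly above wt in 1 gene, Egln2, and wholly below in 3, Arnt (-0.11), Elob (-0.19) and Rbx1 (-0.14), beside 7.03% and 6.57% of all genes. Arnt and Rbx1 are named because the count is small, after their values were seen. Egln2, a prolyl hydroxylase that marks HIF for destruction, was at 39.4, 32 and 39.2 CPM in the knockouts against 23.8, 27.2 and 25.2 CPM in wt (log2 fold change 0.54, edgeR unadjusted p = 0.00289). Elob, elongin B of the ligase complex, had the highest mean RPKM of that list. Of 34 HIF target genes 33 were tested. Of these, 24 had a log2 fold change above 0, beside 50.8% of all genes, with a median of 0.12. Pfkfb3, Pfkfb4, Slc16a3, Pdk1, Egln1 and Egln3 are also in the lists of glycolytic control or HIF machinery, so the lists are not independent. At the unadjusted threshold 3 were higher and 0 lower, beside 3.95% and 2.35% of all genes. Adm, the vasodilator peptide adrenomedullin, was at 21.1, 21.5 and 20.4 CPM against 13.9, 16.3 and 15.9 CPM (0.45, unadjusted p = 0.00650). Plod2, a lysyl hydroxylase that prepares collagen for crosslinking, was at 1265, 1003 and 1184 CPM against 718, 909 and 901 CPM (0.45, unadjusted p = 0.0175). Bhlhe40, a transcriptional repressor, was at 199, 147 and 237 CPM against 139, 135 and 142 CPM (0.49, unadjusted p = 0.0202). These 3 were also the targets in which all Postn-/- libraries lay above all wt libraries, with 0 in the opposite arrangement, beside 7.03% and 6.57% of all genes. No adjusted p was under 0.717. Without wt replicate 1 the median of the HIF targets was -0.00. Pdk4, Egln2, Adm and Bhlhe40 then still passed the unadjusted threshold, which 5.44% of all genes passed, and Mpc1 and Plod2 did not. Epas1, which encodes HIF-2 alpha, moved to 0.93 (unadjusted p = 0.00168) and Car12, a carbonic anhydrase and HIF target, to -0.58 (unadjusted p = 0.0267), both with an edgeR adjusted p of 0.833. Hmox1, heme oxygenase 1 and the most abundant target, gave 0.45 with overlapping groups.

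Among 16 other reference genes, all tested, Rplp0, a ribosomal stalk protein, was at 1153, 1244 and 1083 CPM in the knockouts against 1549.6, 1380 and 1454 CPM in wt (log2 fold change -0.33, edgeR unadjusted p = 0.0276, adjusted p = 0.717). Actb, the most abundant of them, gave -0.36 with overlapping groups. The list's median was -0.11, and 0 genes were higher and 1 lower at the unadjusted threshold, beside 3.95% and 2.35% of all genes.

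**Figure D5:**
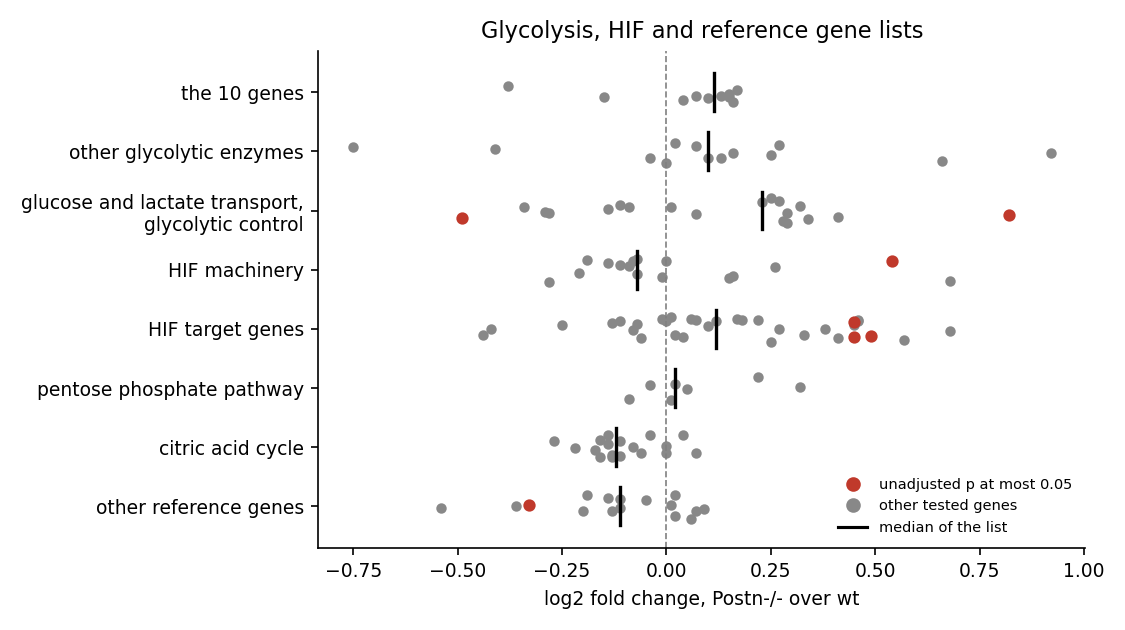
Log2 fold change of Postn-/- over wt for every tested gene of 8 lists, with the median of each list as a black bar and genes that pass 0.05 without adjustment in red. The medians run from -0.12 for the citric acid cycle to 0.23 for transport and glycolytic control, and no gene passes the adjusted threshold.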

How the data were processed

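RNA-seq was made from chondrocyte RNA by an amplifying low-input kit and sequenced as single-end reads of 50 bases. Alignment by the authors used STAR 2.0.4b with the assembly of Ensembl release 76, and featureCounts 1.4.5 then gave each gene its reads that had 1 place and 1 gene. The deposited files give raw counts per gene, with CPM and RPKM that the authors computed from them. The submitters' processing notes name mm9, but the coordinates match GRCm38.

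The tests here start from the counts. Symbols came from GENCODE M21, which matched 40340 of 41388 genes (97.5%). The 355 rRNA genes and genes without CPM above 1 in at least 2 libraries were left out. The 14533 others were fitted with edgeR 4.0.16 (quasi-likelihood test, TMM scaling, R 4.3.3) on 3 against 3 libraries. Standard errors and 95% intervals were derived from the F statistic. Libraries totalled 20587640 to 26572260 counts, and no pair agreed within sampling noise (chi-square per degree of freedom 36.5 to 110). The replicates are separate mice by the study's methods. The script was tested on simulated data.

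The members and gene lists were chosen with earlier results of these data known. Genes named are the 10 members; in other lists, those at an unadjusted p of at most 0.05 and the one with the highest mean RPKM; the 3 most correlated with Gapdh; the 5 sharing the most 50-base words with a member; and Postn. Gm13394 and the real-time PCR targets were added after their values were seen. Alternatives were DESeq2 1.42.0, limma 3.58.1 (voomWithQualityWeights, also with surrogate variables from sva 3.50.0), other scalings and filters, a replicate block, copies added, and leaving out each library.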

Additional observations from a re-analysis of the deposited data

How the results depend on the processing

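Over 16 alternatives, 149 of 160 log2 fold changes of the 10 genes kept their direction, and 0 passed the adjusted threshold (adjusted p 0.302 to 0.999). Adding the copies turned Gapdh to 0.43. Leaving out 1 library gave log2 fold changes of -0.67 to -0.15 for Gapdh, -0.08 to 0.24 for Ldha, -0.00 to 0.30 for Pgk1, 0.02 to 0.25 for Eno1, 0.06 to 0.23 for Pkm, -0.08 to 0.16 for Aldoa, -0.05 to 0.19 for Pfkp, -0.33 to 0.04 for Hk2, -0.04 to 0.36 for Slc2a1 and -0.13 to 0.48 for Hif1a. Of the 11 reversals, 10 came from leaving out a library, 6 of them wt replicate 1. Of the 10 genes, 0 to 2 passed the unadjusted threshold when a library was left out (2 without wt replicate 1, beside 5.44% of all genes). With surrogate variables 1 of them passed, beside 1997 of the 14533 genes. Members of the 10 whose groups did not overlap numbered 0 to 3 (3 without Postn-/- replicate 2, 2 without wt replicate 1, 1 without wt replicate 3, beside 26.5%, 22.3% and 24.5% of all genes). Over all genes, the 2 adjusted calls became 11 in DESeq2, 1 in voomWithQualityWeights, 4 with surrogate variables, 1 with upper quartile scaling, 9 with no filter, 0 with CPM above 1 in all 6 libraries and 1 to 2 when a library was left out. The 916 unadjusted calls became 1997 with surrogate variables, 1797 with no filter and 425 to 1257 when a library was left out (425 without Postn-/- replicate 3). The cause was not tested. The groups share replicate numbers, but the deviations of same-numbered libraries correlated at 0.0824, 0.155 and 0.143, so the numbers were not taken to pair them, although each library correlated best with its own number. With the replicate block, 1 gene was called over all genes and Gapdh gave -0.29 (edgeR adjusted p = 0.688). The low reads of Gapdh, 466 to 924 per library, and the words it shares limit what these counts say of it.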

Other observations

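The side branches of glucose metabolism were measured as well. Of 7 genes of the pentose phosphate pathway, which makes NADPH and ribose, all were tested, with a median log2 fold change of 0.02. At an unadjusted p of 0.05, 0 of them passed, beside 6.30% of all genes. Taldo1, transaldolase, had the highest mean RPKM of them. It was at 390.3, 333 and 386 CPM in the knockouts against 366, 352 and 374 CPM in wt. Of 18 genes of the citric acid cycle, which oxidises acetyl-CoA in mitochondria, 2 had a log2 fold change above 0, beside 50.8% of all genes, and the median was -0.12, or -0.07 without wt replicate 1. None passed the unadjusted threshold, beside 6.30% of all genes. In 4, all Postn-/- libraries lay below all wt libraries, an arrangement found in 6.57% of all genes. Mdh2, the mitochondrial malate dehydrogenase, was at 656, 728 and 718 CPM in the knockouts against 815, 771 and 759.8 CPM in wt (log2 fold change -0.16, edgeR adjusted p = 0.740).

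Markers of the cell types were compared by the same test. Of 14 chondrocyte markers, 10 had a log2 fold change above 0, beside 50.8% of all genes. At the unadjusted threshold 3 were higher and 0 lower, beside 3.95% and 2.35% of all genes. Without wt replicate 1, 2 passed, Col2a1 and Col9a3, beside 5.44% of all genes in that fit. Their median was 0.25, and 0.03 without wt replicate 1, the library with the lowest summed chondrocyte markers. Col2a1, the main cartilage collagen, was at 15767, 13696 and 18081 CPM in the knockouts against 8271, 11867 and 9567 CPM in wt (log2 fold change 0.68, edgeR unadjusted p = 0.0125). Col9a3 gave 1.00 (unadjusted p = 0.0128) and Col11a2 gave 0.52 (unadjusted p = 0.0406), while Cnmd, the most abundant per length, gave -0.29. All knockout libraries lay above all wt libraries for Col2a1 and Col9a3 and below them for Cnmd. These arrangements were found in 7.03% and 6.57% of all genes. Col11a1 (-0.14), Matn1 (-0.27) and Hapln1 (-0.03), the others below 0, are named after their values were seen. Of 10 skeletal muscle markers 7 were tested, of which 3 were above 0 and 1 was lower at the unadjusted threshold, with a median of -0.15, or -0.25 without wt replicate 1. Acta1, skeletal muscle actin, was at 2.77, 4.51 and 4.43 CPM in the knockouts against 4.96, 15.9 and 8.15 CPM in wt (-1.30, unadjusted p = 0.0152). No adjusted p of these was under 0.717. In the other marker lists 0 genes passed the unadjusted threshold with 6 libraries, beside 6.30% of all genes. Of the tested genes, 4 of 7 fibroblast markers (median 0.16), 4 of 4 blood and bone marrow markers (0.47), 4 of 4 endothelial markers (0.36) and 4 of 6 osteoblast and osteoclast markers (0.05) had a log2 fold change above 0. The most abundant genes per length of these lists and of the muscle list were Dcn (0.26), Cd68 (0.56), Pecam1 (0.11), Ctsk (0.14) and Tnnt3 (-0.17). The groups overlapped in each. Without wt replicate 1, S100a4 of the fibroblast list gave 1.4 (edgeR unadjusted p = 0.00235) and Cd68, a macrophage marker, gave 1.05 (unadjusted p = 0.0231). Both had an adjusted p of 0.833, in a fit where 5.44% of all genes passed the unadjusted threshold. The list medians, in the order above, were then 0.32, 0.36, 0.18 and 0.09.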
